A study of Mus musculus with 4 samples.

Results

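The cells described here are 182 cells of the control library of a mouse embryonic pancreas study, chosen for leukocyte genes and for low counts in 4 macrophage and monocyte marker sets. They were chosen by fixed limits on UMI counts (UMIs are molecular barcodes, so each is 1 captured RNA molecule). Each barcode needed 500 or more detected genes, a mitochondrial share of 10% or less, and at least 10 UMIs summed over Ptprc, Coro1a, Laptm5, Cd52, Fcer1g and Tyrobp, which are genes of leukocytes. It also had to hold under 4 UMIs of Lyve1, under 3 of Fcgr4 and under 3 of Ly6c2, and, scaled to CPM (per 1000000 UMIs of the same cell), under 3000 CPM of C1qa, C1qb and C1qc together, under 300 CPM of Epcam and under 1500 CPM of Cpa1. Of 941 control barcodes, 182 passed (19.3%), in a series of 1558 barcodes. The working name of the cells was immune cells without macrophage or monocyte markers, and the data go against it: most of them carried the monocyte genes Plac8, Ccr2 and Lyz2 and the macrophage colony-stimulating factor receptor gene Csf1r. They are called the C1q-low cells below. In 11 of them the leukocyte genes were near the level of epithelial cells.

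The study profiled embryonic day 15.5 pancreas by droplet-based 10x Genomics sequencing. The knockout animals carried PdxCre, floxed Ogt alleles (OGTflox/flox) and a CAG GFP reporter, and their cells were sorted on endogenous GFP. The Pdx promoter drives Cre in the pancreatic epithelium, where it deletes Ogt, the X-linked gene of the O-GlcNAc transferase. The controls were OGTflox/flox animals without Cre, labelled WT, and their cells were sorted on E-cadherin GFP. Both genotypes were labelled as pancreatic epithelial cells, and each gave 1 table in which 2 technical sequencing repeats were merged, so there is 1 library per genotype, with no replicate and no test. How many embryos were pooled is not given in the sources used here.

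Monocytes leave the blood, enter tissues through the chemokine receptor CCR2, and lose Ly6c2 and gain macrophage genes such as C1q as they mature. In the embryo the earliest macrophages come from the yolk sac, and monocytes of the fetal liver arrive later and settle beside them. Mast cells, basophils, dendritic cells and lymphocytes are the other leukocytes a fetal organ can hold.

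The immune limit removed few control cells: 901 of the 925 barcodes that passed on genes and mitochondrial share reached it, although the labels call them epithelial. In the knockout library 115 of 561 reached it. Reaching it did not by itself mark a leukocyte: the 37 control epithelial cells described below held 3 to 79 such UMIs, with a median of 29. Besides the C1q-low cells, 633 control cells passed the immune and epithelial limits and failed at least 1 of the 4 macrophage and monocyte limits. They were split in order into 197 with Lyve1 (the Lyve1 group), 89 with Fcgr4, 67 with Ly6c2 and 280 with C1q alone (the C1q group). The C1q-low cells had a median of 9476 UMIs (3970 to 30199) and 2856.5 genes, and the other control immune cells a median of 10991 UMIs. The Ly6c2 and Fcgr4 groups were deeper, at 12918 and 14712 UMIs, and the limits on those genes are absolute counts of 3 UMIs, so a shallow cell passes them more easily. No barcode was shared between the libraries.

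At the edges of the limits, 2 C1q-low cells had exactly 10 immune UMIs, and 10 cells with 9 or fewer failed on that limit alone. The cell nearest to the C1q limit from inside stood at 2832 CPM and the nearest outside at 3054, and 280 cells failed on C1q alone. Fcgr4 alone kept out 38 cells, Ly6c2 alone 67, Epcam alone 41 and Cpa1 alone 3. No cell failed only on its gene number, its mitochondrial share or Lyve1.

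Free RNA was gauged in 37 control epithelial cells with at least 300 CPM of Epcam and 1500 CPM of Cpa1 (median 24331 UMIs). Levels of a group are UMIs summed over its cells and scaled to CPM, with exact 95% intervals that cover counting error only, since UMIs of 1 library share their source. All the genes used to choose the cells are given as descriptions.

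Plac8, which lies on chromosome 5 (100553725 to 100572245, minus strand, GRCm38) and is a cysteine-rich protein gene of monocytes and granulocytes, stood at 2096 CPM in the C1q-low cells (2033 to 2160). It stood at 2464 CPM in the Ly6c2 group, 2000 in the Fcgr4 group, 428 in the C1q group, 239 in the Lyve1 group and 205 in the epithelial cells. The C1q-low cells thus lay between the Fcgr4 and Ly6c2 groups, and far above the C1q and Lyve1 groups. Single cells ran up to 9491 CPM of Plac8, with a median of 1619.

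Ccr2, the receptor by which monocytes follow CCL2 (chromosome 9, 124101950 to 124113557, plus strand), had 790 CPM in the C1q-low cells, 763 in the Ly6c2 group, 656 in the Fcgr4 group, 251 in the C1q group, 55.2 in the Lyve1 group and 46.1 in the epithelial cells. Its intervals in the C1q-low cells (752 to 830) and the Ly6c2 group (710 to 820) overlapped. Lyz2, the lysozyme gene of myeloid cells (chromosome 10, 117277331 to 117282321, minus strand), was the second highest gene of the C1q-low cells after Tmsb4x. It had 15207 CPM there, 19943 in the Ly6c2 group, 10009 in the Fcgr4 group, 3044 in the C1q group, 2841 in the Lyve1 group and 897 in the epithelial cells. Lyz2 has a near-identical neighbour, Lyz1, and counting may split reads between them.

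**Figure D1:**
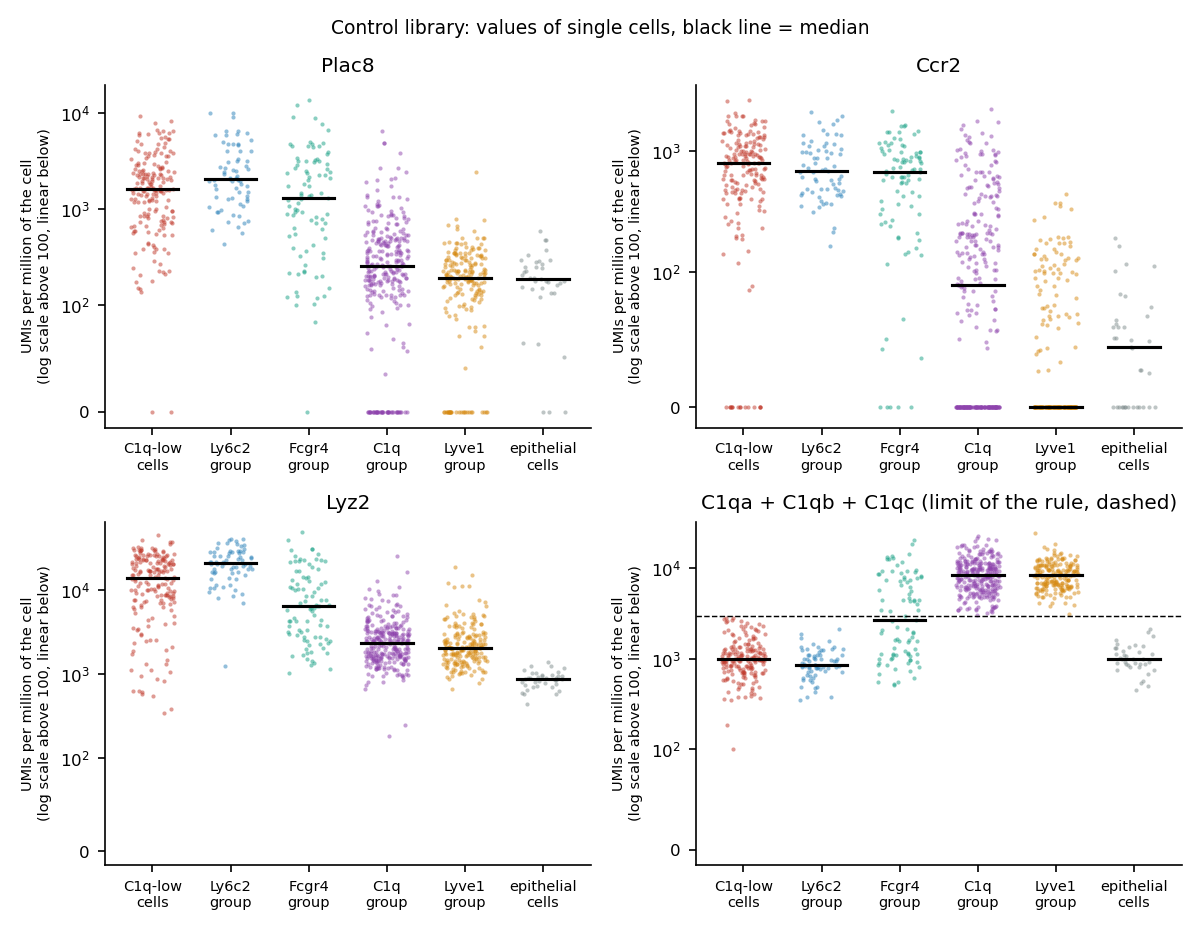
Each point is 1 control cell, with the CPM of that cell on the y axis (log scale above 100, linear below) for Plac8, Ccr2, Lyz2 and the summed C1q genes, in the C1q-low cells (left), the 4 other immune groups and the epithelial cells; black lines are medians and the dashed line is the C1q limit. For Plac8 (median 1619), Ccr2 and Lyz2 the C1q-low cells lie nearer to the Ly6c2 group than to the C1q and Lyve1 groups, and their C1q median of 993 is near the 1000.15 of the epithelial cells.

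Thinned to 5000 UMIs per cell, which left out 18 cells, 97.0% of 164 C1q-low cells held a Plac8 UMI, against 48.6% of 35 epithelial cells. Ccr2 was found in 141 of the 164 thinned C1q-low cells and 7 of the 35 epithelial cells, and Csf1r in 86.6% and 45.7%. Unthinned, the shares of C1q-low cells were 98.9%, 91.8% and 92.3%. At least 3 UMIs of Plac8, Ccr2 and Ms4a4c together were present in 157 of 164 C1q-low cells (95.7%) and in 3 of 35 epithelial cells (8.57%).

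Macrophage genes were low but not absent. C1qb, a chain of the complement starter C1q, was at 522 CPM in the C1q-low cells, 2768 in the other control immune cells and 405 in the epithelial cells. C1qa was at 249, 2011 and 379 CPM in the same 3 groups, so the C1q genes lay near the free RNA level. Pf4 (415 against 2735 CPM, with 455 in epithelial cells) and the mannose receptor gene Mrc1 (interval 72.6 to 98.8 against 584, with 77.5) lay there too. By contrast, Csf1r had 566 CPM against 911 in the other immune cells and 120 in the epithelial cells, Adgre1, which encodes the macrophage antigen F4/80, 223 against 368 and 58.9, and the fractalkine receptor gene Cx3cr1 265 against 611 and 52.0.

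Over all genes, the C1q-low cells resembled the Ly6c2 and Fcgr4 groups most. Of 4124 genes that reached 50 UMIs in 10 cells of the higher side, 95 were at least 2-fold higher (2.30%) and 45 at least 2-fold lower (1.09%) in the C1q-low cells than in the Ly6c2 group. Against the Fcgr4 group these were 97 (2.14%) and 55 (1.21%) of 4537 genes. Against the C1q group 244 (4.16%) and 321 (5.47%) of 5866 genes passed, and against the Lyve1 group 401 (6.83%) and 514 (8.75%) of 5874. Group sizes differ, so the number of genes that reach the floor differs too. Across genes Pearson's r of log2(CPM + 10) was 0.97 with the Ly6c2 and Fcgr4 groups, 0.95 with the C1q group and 0.92 with the Lyve1 group. Genes are not independent replicates, and all groups share 1 library and its free RNA. Each group failed a limit that the C1q-low cells passed, and the genes of the limits were not left out here. The distance to the C1q and Lyve1 groups is thus partly set by the choice. Medians of C1q over single cells were 993 CPM in the C1q-low cells, 850 in the Ly6c2 group and 2705 in the Fcgr4 group. They were 8357 CPM in the C1q group and 8402 in the Lyve1 group.

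Set against the 633 other control immune cells together, 143 of 7205 genes were at least 2-fold higher in the C1q-low cells (1.98%) and 465 at least 2-fold lower (6.45%). The genes of the limits and those that follow them are part of these counts. The median log2 ratio of all genes was -0.00.

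Among the 15 genes with the largest ratio, 7 stayed high when 11 cells of low immune content (described below) were left out. Ifitm6, an interferon-induced membrane protein gene, had 300 CPM in the C1q-low cells and 84.7 in the other immune cells (3.54-fold, 3.16 to 3.95). Napsa, an aspartic protease gene, had 384 against 123 CPM (3.13-fold, 2.85 to 3.45). The calcium-binding protein genes S100a4 and S100a6 stood at 141 against 41.9 and at 721 against 272 CPM. Cd74, the invariant chain of MHC class II, had 809 against 283 CPM (2.86-fold), and H2-Aa 110 against 36.0 CPM (3.04-fold). Ifitm1 had 272 against 44.6 CPM (6.11-fold), with 54.6% of its UMIs in 5 cells.

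The other 8 of these genes rested on the 11 cells of low immune content. Ghrl, Chgb, Chga and Aplp1 are hormone or secretory genes of endocrine cells, Col1a1 and Col3a1 are collagens, and Itm2a encodes a membrane protein, and Meg3 is an imprinted non-coding RNA. Ghrl had 294 UMIs, of which 1 cell held 276. Without the 11 cells the ratio to the other immune cells was 0.68 for Ghrl, 0.83 for Chgb, 0.13 for Col1a1 and 0.41 for Meg3, against 11.1, 7.66, 3.39 and 5.37 with them. Without the 5 highest cells of each group Meg3 was still at 5.24.

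Of the 15 genes with the smallest ratio, 11 are genes of resident macrophages or of their products. Choosing cells by low C1q and Lyve1 favours such genes on this side. Fcrls stood at 86.5 against 606 CPM in the other immune cells, Gas6, a ligand for the clearance of dying cells, at 59.3 against 428, Dab2, an endocytic adaptor, at 155 against 992, and the iron exporter gene Slc40a1 at 49.3 against 313. Cd36, Fcna, Ms4a7, Ltc4s and the chemokine gene Ccl12 (59.8 against 338 CPM) followed, with Pf4 and Mrc1. The remaining 4 were the haemoglobin genes, such as Hbb-bs at 19.1 against 499 CPM. Of the Hbb-bs UMIs in the other immune cells 96.3% lay in 5 cells, and without the 5 highest cells of each group the ratio was 0.79 for Hbb-bs, 0.59 for Hba-a1 and 0.38 for Hbb-bt, with no Hba-a2 UMI left in the C1q-low cells. Haemoglobin genes have near-identical copies, and the same holds for Stfa1 and Stfa3 and for the Bcl2a1 family below, so the share of each copy is uncertain.

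Gene lists were read as the number of measured genes (at least 20 UMIs in the 2 groups together) that passed 2-fold, beside 4.39% higher and 7.12% lower among all 10850 such genes. Of 10 monocyte genes that were not part of the limits, 6 were higher and 0 lower, with a median log2 ratio of 1.03, among them Plac8, Ccr2, Hp (401 against 152 CPM), Treml4 and Spn. The sums of lists leave out the genes of the limits throughout. The monocyte list had 3810.3 CPM in the C1q-low cells, 1648 in the other immune cells and 343 in the epithelial cells. By group it had 4832 CPM in the Ly6c2 group, 3447 in the Fcgr4 group, 897 in the C1q group and 399 in the Lyve1 group. Of 17 macrophage genes outside the limits, 0 were higher and 9 lower (median -1.20). That list had 10683 CPM in the C1q-low cells, 23484 in the other immune cells and 3493 in the epithelial cells. It had 7606 CPM in the Ly6c2 group, 21094 in the Fcgr4 group, 26202 in the C1q group and 27570 in the Lyve1 group. Most of the other immune cells were put aside for Lyve1 or C1q. Genes that follow these 2 are therefore not independent of the choice, and their lower levels are a description. Among scavenger receptor genes 7 of 10 were lower, among them Stab1 (147 against 693 CPM), while Axl had 69.9 against 71.0 CPM. The scavenger receptor list had 404 CPM in the C1q-low cells and 356 in the Ly6c2 group. It had 699 CPM in the Fcgr4 group, 1522 in the C1q group and 2804 in the Lyve1 group. Low macrophage and scavenger receptor lists were thus not particular to the C1q-low cells.

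Of 14 chemokine genes 1 was higher and 7 lower. Ccl7 (23.1 against 118 CPM), Ccl24 (71.4 against 217) and Cxcl16 (9.55 against 48.8), which call in monocytes, granulocytes or T cells, were among the lower ones, whereas Ccl6 (362 against 233) and Ccl9 (701 against 423) stayed within 2-fold. Among transcription factor genes of leukocytes, Maf, a factor of mature macrophages, had 144 against 541 CPM, Cebpb, a factor of monocytes and granulocytes, 1217 against 673, and Spi1, which encodes PU.1, 496 against 495. Of 18 interferon-stimulated genes only Ifitm3 passed (2346 against 1155 CPM). None of 20 mitosis genes passed in either direction, and of 20 S phase genes 0 were higher and 1 lower.

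Lymphoid genes were low in the C1q-low cells. The B lineage list had 74.4 CPM in the C1q-low cells and 77.0 in the other immune cells, and the T, NK and innate lymphoid list 61.3 and 41.4. At 5000 UMIs 0 of 164 C1q-low cells held 5 UMIs of either list, which by a limit of 3 counts allows a share of up to 1.83% for each. Cd3e and Il7r had 0 UMIs. The erythroid list had 34.7 CPM, close to the 37.3 CPM of the epithelial cells. It had 44.9 CPM in the Lyve1 group, 42.4 in the Fcgr4 group, 43.6 in the Ly6c2 group and 3442 in the C1q group. The conventional dendritic cell list had 1435 CPM in the C1q-low cells and 780.4 in the other immune cells, with 4 of 12 genes higher and 3 lower, and 51 of 164 C1q-low cells and 0 of 35 epithelial cells (which allows up to 8.57%) held 5 UMIs of it. That list shares 5 genes with the MHC class II list described next, and without these it had 387 against 403 CPM, with 1 of 8 genes higher and 3 lower, and 10 of 164 C1q-low cells held 5 UMIs. With the shared genes, the dendritic list had 1791 CPM in the Fcgr4 group, above the C1q-low cells. It had 907 CPM in the Ly6c2 group, 574 in the C1q group and 459 in the Lyve1 group. The neutrophil list had 481 CPM in the C1q-low cells against 417 in the other immune cells, with 3 of 10 genes higher and 1 lower. The mast cell list had 132 against 216 CPM, with 3 of 4 measured genes higher (Cpa3, Gata2 and Hdc) and Hpgds, a prostaglandin synthase gene that macrophages also express, at 69.9 against 212 CPM. The basophil list had 618 against 439 CPM, with 5 of 6 genes higher and 0 lower. Of its 1230 UMIs in the C1q-low cells, Prss34 held 47, Mcpt8 36, Gata2 31 and Cd200r3 23. The list also holds the chemokine gene Ccl3, so its sum is not a level of basophils. It stood at 643 CPM in the Fcgr4 group, 614 in the Ly6c2 group, 428 in the C1q group and 283 in the Lyve1 group. All C1q-low UMIs of Cpa3, Gata2, Prss34, Mcpt8 and Cd200r3 lay in 2 cells, described below.

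**Figure D2:**
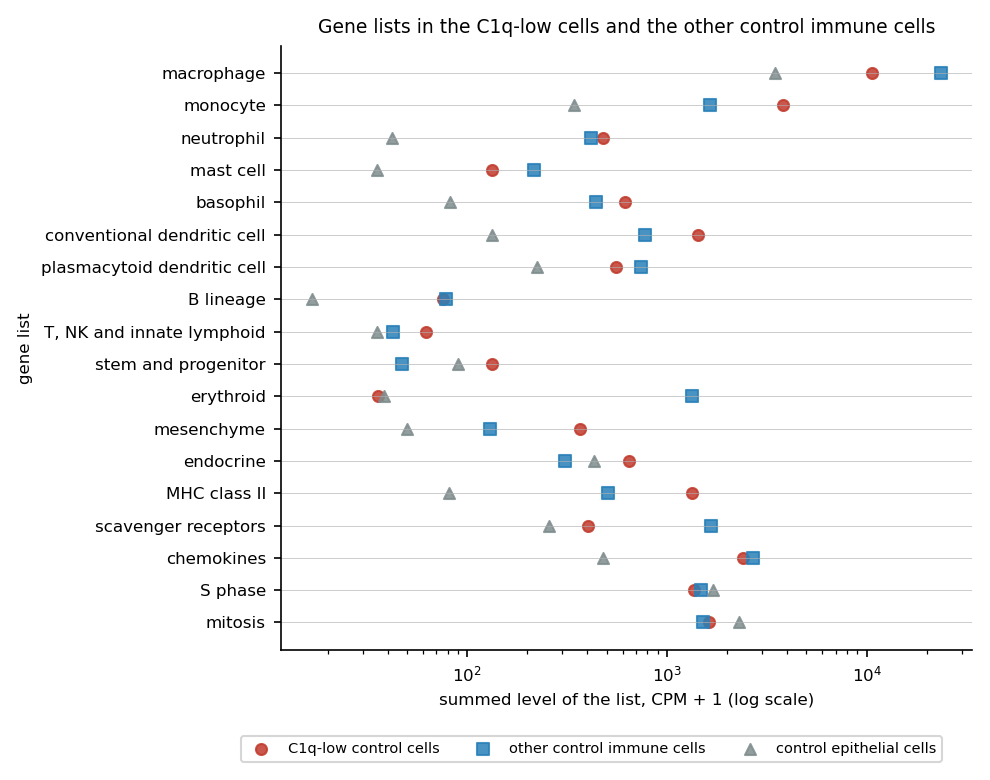
Summed level of 18 gene lists on a log scale (CPM + 1) in the C1q-low cells (circles), the other control immune cells (squares) and the control epithelial cells (triangles). Genes of the limits are left out of the sums. The monocyte and MHC class II lists are higher, as is the dendritic list, which shares 5 genes with the MHC class II list, and the macrophage, scavenger receptor and erythroid lists are lower in the C1q-low cells than in the other immune cells.

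MHC class II presents peptides to helper T cells, and its genes are switched on through upstream X and Y boxes. Of 8 measured MHC class II genes 6 were higher and 0 lower in the C1q-low cells (median 1.10). The list summed to 1339 CPM there, against 509 in the other control immune cells together. Those cells differed by group. The list had 1602 CPM in the Fcgr4 group, above the C1q-low cells. It had 692 CPM in the Ly6c2 group, 299 in the C1q group and 126 in the Lyve1 group. A high MHC class II list was thus not particular to the C1q-low cells. Within the C1q-low cells the signal was uneven. H2-Aa had 218 UMIs in 25 cells, and 10 cells with at least 1000 CPM held 194 of them. These 10 cells, chosen after their values were seen, also held 146 of 164 UMIs of H2-Ab1, 83 of 94 of H2-Eb1 and 866 of 1609 of Cd74. The highest cell reached 10592 CPM of H2-Aa, the eighth 1168, and the median was 0. A UMI of H2-Aa, H2-Ab1 or H2-Eb1 was present in 18 of 164 thinned C1q-low cells (11.0%) and in 4 of 35 epithelial cells (11.4%), so the share of cells with any UMI did not stand above free RNA, and the levels in those 10 cells carried the difference. Of the genes that define dendritic cells, Flt3 had 6 UMIs, Xcr1 1, and Zbtb46, Clec9a, Cd209a and Ccr7 0 among the 182 cells.

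The promoters of 2 of these genes are shown because the genes were highest in the same cells and both promoters hold the letters CTGATTGG. The windows run from 250 bases before to 50 after the RefSeq start (GRCm38.p6), on chr17:34287774-34288073 (minus strand) for H2-Aa and chr17:34305617-34305916 (plus strand) for H2-Eb1, 5′ to 3′, with CTGATTGG in capitals.
H2-Aa: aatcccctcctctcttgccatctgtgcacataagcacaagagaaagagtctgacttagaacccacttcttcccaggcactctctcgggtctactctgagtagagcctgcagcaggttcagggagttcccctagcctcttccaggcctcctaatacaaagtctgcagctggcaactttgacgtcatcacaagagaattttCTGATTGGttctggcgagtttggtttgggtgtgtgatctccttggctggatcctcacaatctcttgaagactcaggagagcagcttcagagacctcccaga
H2-Eb1: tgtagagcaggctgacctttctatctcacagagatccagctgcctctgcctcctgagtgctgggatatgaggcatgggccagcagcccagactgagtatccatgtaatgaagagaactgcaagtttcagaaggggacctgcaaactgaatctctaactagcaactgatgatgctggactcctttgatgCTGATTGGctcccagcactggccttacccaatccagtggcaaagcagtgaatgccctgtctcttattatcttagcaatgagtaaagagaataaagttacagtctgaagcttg
The letters CTGATTGG, searched on both strands and picked after the sequences had been read, were found in 1346 of 32851 promoters of this length (4.10%). They stand at position 200 of the H2-Aa window and position 189 of the H2-Eb1 window, and also at position 205 for H2-Oa, which had 18 UMIs in the C1q-low cells. The windows of H2-DMa, H2-DMb1, H2-DMb2 and H2-Ob do not hold these letters. Those of H2-DMb1, H2-DMb2 and H2-Ob do hold TGATTGG, the same letters without the first. A window without the full letters is therefore not shown to lack a Y box. A match is a description of the letters and says nothing of binding.

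Clustered on their own, the C1q-low cells fell into 9 clusters (0 to 8). Their leading genes are descriptions, since the same genes made the clusters. Cluster 0 (38 cells) was led by Hist1h2ap, Top2a, Rrm2 and other genes of dividing cells, and cluster 7 (10 cells) by Cenpa, Ccnb2 and Cdc20, genes of mitosis. The mitosis list had 3981 CPM in cluster 0, 3189 in cluster 7 and 314 in cluster 1. Cluster 6 (10 cells) held Mcm3, Lig1 and Mcm6, genes of DNA replication, with Cd34 at 214 CPM and Hspa1a, of which 1 cell held 53.3%.

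Cluster 1 (36 cells) was led by S100a8, Stfa1, Ifitm6 and Hp, genes of monocytes and granulocytes, and had the highest monocyte list (7083 CPM) and the highest Plac8 (4514 CPM) and Lyz2 (25879 CPM). Cluster 2 (32 cells) was led by the chemokine gene Ccl2 (449 CPM) and by C3ar1, the receptor of a complement fragment. Cluster 3 (25 cells) was led by Ldhb, Lair1, Tmem119 and Apoe (18608 against 6130 CPM in the remaining C1q-low cells), and had the highest macrophage list, at 22813 CPM against 3770.4 to 14406 CPM in the other clusters. Ccr2 was also highest in cluster 3, at 1203 CPM, so the macrophage gene Apoe and the monocyte gene Ccr2 stood high in the same cluster.

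Cluster 4 (13 cells) was led by H2-Aa (933 against 52.2 CPM), Cd74 (5435 against 486), H2-Ab1 and H2-Eb1, and 3 survival genes of the Bcl2a1 family. It was given no cell type name, because the defining dendritic genes were at or near 0. Cluster 5 (13 cells) was led by Chgb, Aplp1, Chga and Pcsk1n and was mixed: Chgb was found in 4 of its cells. Cluster 8 (5 cells) was led by Col1a1 (3299 against 3.09 CPM), Col3a1 and Col1a2, with Dcn, and was mesenchyme-like.

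**Figure D3:**
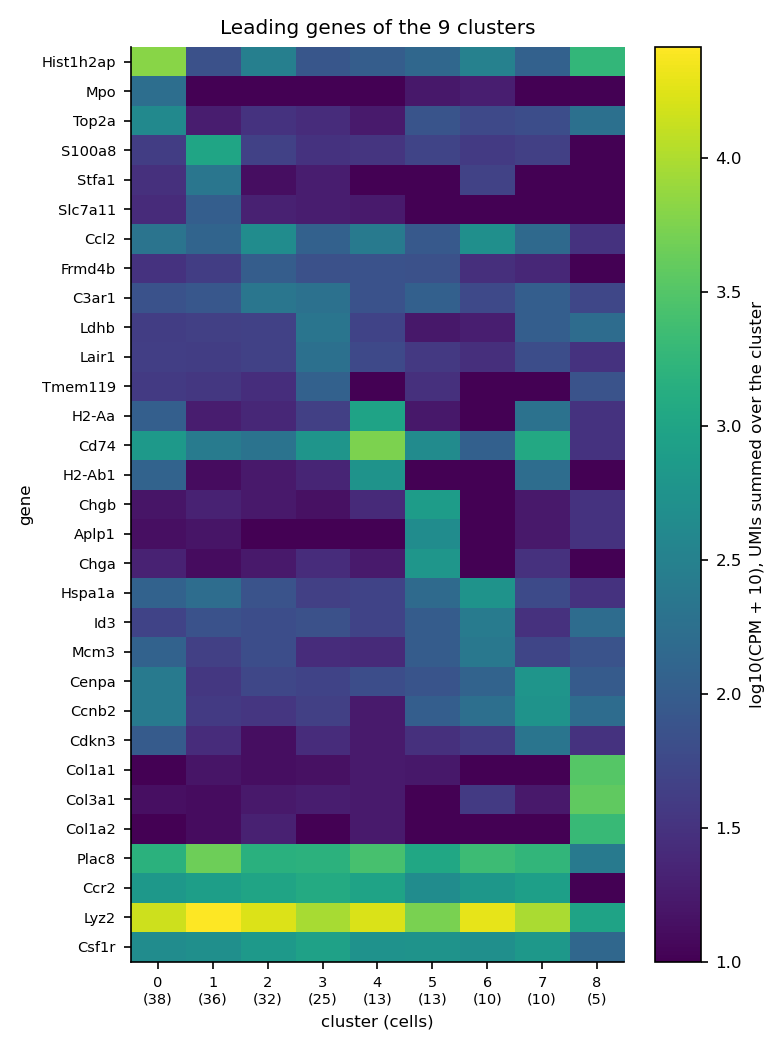
Levels of the 3 leading genes of each cluster and of Plac8, Ccr2, Lyz2 and Csf1r, as log10(CPM + 10) by colour, in the 9 clusters of the C1q-low cells (columns, with cell numbers). Plac8 and Lyz2 run through clusters 0 to 7 and are lowest in cluster 8.

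The 6 immune genes of the limits set a group of 11 C1q-low cells apart. They held 872 to 2344 CPM of these genes, all other C1q-low cells 5523 or more, and the epithelial cells a median of 1266. Of the 11, 6 belonged to cluster 5 and 5 made up cluster 8. In cluster 8 the immune sum was 10 to 19 UMIs, close to the limit of 10. Ccr2 had 0 UMIs in cluster 8 and Plac8 236 CPM, near the 205 CPM of the epithelial cells. Without the 11 cells, 131 genes were higher and 564 lower than in the other immune cells, and Plac8 stood at 2199 CPM.

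**Figure D4:**
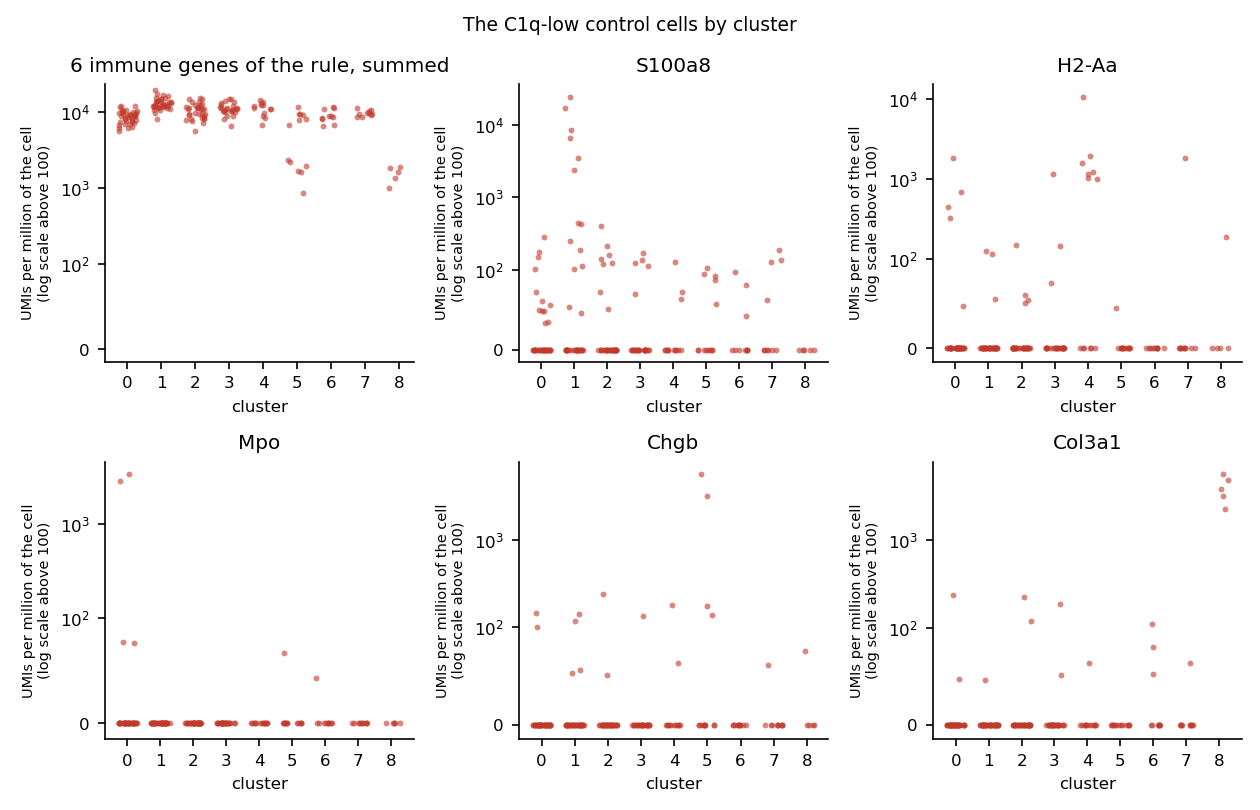
CPM in each of the 182 C1q-low cells (points) by cluster, on a log scale above 100, for the 6 immune genes together and for S100a8, H2-Aa, Mpo, Chgb and Col3a1. A few cells far above the rest carry each of the last 5 genes, and 11 cells of clusters 5 and 8 lie apart in the immune sum.

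A pair of cells stood out, chosen after their values were seen. Both belonged to cluster 0 and had 15643 and 12572 UMIs. Together they held 87 of the 91 UMIs of Mpo, the peroxidase gene of granule-forming progenitors, and all UMIs of Cpa3 (53), Prss34 (47), Mcpt8 (36), Gata2 (31), Il6 (26) and Cd200r3 (23). Cpa3 and Gata2 are genes of mast cells and basophils, Prss34, Mcpt8 and Cd200r3 are genes of basophils in mouse, and Il6 encodes a cytokine. They also held 252 of 542 Ifitm1 UMIs. Their immune sums, 6073 and 6284 CPM, lay inside the range of the remaining C1q-low cells. The mast cell genes Mcpt4, Tpsb2, Tpsab1 and Fcer1a had 0 UMIs in all 182 cells, and Cma1 had 1.

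S100a8, which with S100a9 forms calprotectin, was as uneven. Of its 399 UMIs, 6 cells of cluster 1 held 337, between 2404 and 24360 CPM, and the next cell had 439. The same 6 cells held 67 of 92 UMIs of Stfa1 and 29 of 56 of Stfa3, cysteine protease inhibitor genes of granulocytes and monocytes. S100a9 had 16 UMIs in the 182 cells. The neutrophil genes Ngp, Camp, Ly6g and Lcn2 had 0 UMIs. The 67 cells of the Ly6c2 group had 2070 CPM of S100a8, against 201 CPM in the C1q-low cells.

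The same limits in the knockout library kept 45 of 617 barcodes (7.29%). The knockout cells had a median of 16406 UMIs. Genotype, sort and library differ together, so what belongs to each cannot be told apart, and 1 library per genotype allows no test. Ogt itself had 43.7 CPM in the knockout cells (30.4 to 60.7) and 60.3 in the C1q-low control cells. That ratio of 0.72 had an interval of 0.48 to 1.06, which holds 1.

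Of 5595 genes, 364 were at least 2-fold higher in the knockout cells (6.51%) and 674 at least 2-fold lower (12.0%), and with TMM scaling these were 270 and 1012. The TMM factor was 1.13 for the knockout cells and 0.96 for the C1q-low control cells, and the median log2 ratio of all genes without it was 0.10. The macrophage list stood at 2704 CPM in the knockout cells and 10683 in the C1q-low control cells, with 0 genes higher and 13 of 14 lower, and the monocyte list at 1883 against 3810.3 CPM, with 0 of 10 higher and 5 lower, beside 11.1% higher and 9.65% lower of all 8809 genes counted for lists. Lyz2 had 3446 against 15207 CPM (ratio 0.23), Apoe 1848 against 7590, and Trem2, a lipid receptor gene of macrophages, 36.2 against 212. Aif1, Ms4a6d, Msr1, Cd86, Clec4a3, Cx3cr1 and Stab1 completed the 10 largest differences in this direction, with ratios of 0.10 to 0.22.

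In the other direction stood mast cell and lymphoid genes. Of 8 mast cell genes 7 were higher in the knockout cells, where the list had 2529 CPM against 132 in the C1q-low control cells. Of 16 T, NK and innate lymphoid genes all 16 were higher, with 1475 against 61.3 CPM, and of 6 B lineage genes 5 were higher, with 787 against 74.4 CPM. Cma1, the mast cell chymase, had 695 UMIs in the knockout cells (867 CPM) and 1 in the control cells, a ratio of 1724 (308 to 68206). Cpa3 had 990 against 26.6 CPM (37.2-fold, 28.1 to 50.1), and 5 cells held 91.1% of its knockout UMIs. Cd7, a surface protein of T and NK cells, had 315 UMIs and 0 in the control cells, and was at least 261-fold higher with the control floor set at 3 UMIs over the group. By the same floor Tcf7, a factor of T and innate lymphoid cells, was at least 103-fold higher and the tryptase gene Tpsb2 at least 85.2-fold higher. Ltb (210 against 5.53 CPM), Ccl5 (278 against 1.01), Ptprcap and Hdc followed. Cym, also at 0 in the control cells, was found at 5000 UMIs in 17 of the 45 knockout cells (37.8%) and in 46 of 89 knockout epithelial cells (51.7%). Unthinned, it was found in 33 of 45 and 82 of 89, with median depths of 16406 and 30923 UMIs. Cym had 176 CPM in the knockout epithelial cells and 0.981 in the control epithelial cells. Knockout epithelial cells therefore do not gauge free RNA for Cym, and whether free RNA had a part was not tested.

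**Figure D5:**
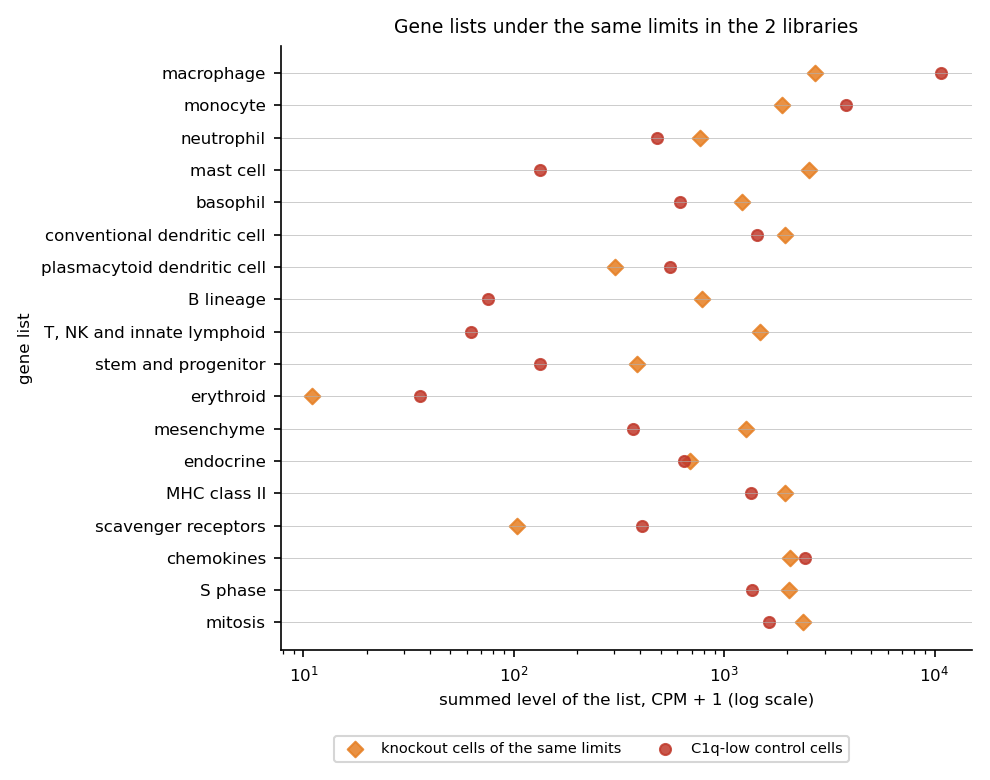
Summed level of 18 gene lists on a log scale (CPM + 1) in the 45 knockout cells (diamonds) and the 182 C1q-low control cells (circles) chosen by the same limits, with the genes of the limits left out. Mast cell, lymphoid and B lineage lists are higher and macrophage, monocyte and scavenger receptor lists lower in the knockout cells.

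Counted per cell at 5000 UMIs, 11 of 45 knockout cells and 2 of 164 C1q-low control cells held at least 5 UMIs of the mast cell list. For the T, NK and innate lymphoid list these were 15 of 45 and 0 of 164, for the B lineage list 2 of 45 and 0 of 164, and for the monocyte list 26 of 45 and 152 of 164. In knockout cells that met the same Epcam and Cpa1 limits as the epithelial controls, the mast cell list reached 5 UMIs in 2 of 89 and the T, NK and innate lymphoid list in 0 of 89. Of the knockout cells, 1 reached 5 UMIs of both the mast cell and the T, NK and innate lymphoid lists, 6 of both the mast cell and monocyte lists, and 4 of both the T, NK and innate lymphoid and monocyte lists. The mesenchyme list was higher too (1275 against 366 CPM), but it reached 5 UMIs in 14 of 45 knockout cells and also in 31 of 89 knockout epithelial cells. The acinar list had 6249.8 against 3123 CPM. Whether free RNA had a part in these 2 lists was not tested.

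Of the 45 knockout cells, 12 lay under 3000 CPM of the immune genes. Without them and without the 11 such control cells, a choice made after the data were seen, the mast cell list had 1554 against 137 CPM, the T, NK and innate lymphoid list 1588 against 61.6, the macrophage list 3818 against 11075 and the B lineage list 58.7 against 69.5 CPM. The B lineage difference was thus carried by knockout cells of low immune sum. Fcer1g and Tyrobp, which are in that sum, are genes mainly of myeloid and NK cells.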

How the data were processed

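The deposited tables, 1 per genotype, held raw UMI counts per gene and barcode, and per the labels 2 technical sequencing repeats of a genotype were merged in each. Cell Ranger 2.0.0, Seurat 2.0, DESeq2 1.14.1 and mm10 are named in the submitters' processing notes, with roles not given in the sources used here. Of 27998 gene identifiers 27645 took a symbol from the reference gene name table, and coordinates are from GENCODE M21 (GRCm38). The cells and gene lists were chosen with earlier results of these data known.

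Counts were summed over the cells of a group and scaled to CPM. Intervals were exact Poisson (levels), conditional (ratios) and binomial (shares) at 95%, and the limit given for a share of 0 is 3 counts of the total. A gene passed at 2-fold. Named genes were the 15 per direction with the largest log2 ratio (10 CPM added, at least 50 UMIs in 10 cells and 2-fold) against the other immune cells, 10 per cluster (20 UMIs in 3 cells), 10 per direction against the knockout cells (30 UMIs in 5 cells), the 20 highest genes and the genes of the limits and lists. Gm and Rik models and sex-linked marker genes were left unnamed, and a few other items are not reported here. Clusters came from scanpy 1.11.5 and leidenalg 0.10.2 (1000 variable genes, 15 components, 10 neighbours, resolution 1). Scrublet marked 8 of 561 knockout and 4 of 925 control cells as doublets, 1 and 0 of them among the cells that passed the limits, and they were kept. Shares were read after thinning each cell to 5000 UMIs. Free RNA was to be read in acinar cells with under 10 immune UMIs, but only 4 cells qualified, so 37 epithelial cells were used, a choice made after the data were seen. Scaling by TMM used edgeR 4.0.16. The ratio intervals were tested on simulated counts. Total depth was 11064540 UMIs in the knockout and 11973979 in the control table.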

Additional observations from a re-analysis of the deposited data

How the results depend on the processing

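No paired analysis was possible because the technical repeats of each genotype were merged in 1 table and nothing was tested. Leaving out replicates was not possible for the same reason. The number of C1q-low cells was 182, 55 with no UMI allowed of Lyve1, Fcgr4 or Ly6c2, 93 with C1q under 1000 CPM, and 171 to 258 under the other limits tried. Clusters numbered 9, 5 at resolution 0.5, 15 at resolution 2 and 7 without cell cycle genes. At resolution 2 and without cell cycle genes no cluster was led by MHC class II genes. Clusters led by collagen genes held 5 cells, 23 at resolution 0.5 and 13 without cell cycle genes. For endocrine genes these were 13, 23 and 13 cells. Genes 2-fold higher than in the other immune cells numbered 143, and 465 were lower. With a floor of 10 UMIs these were 455 and 991, with 100 UMIs in 20 cells 88 and 318, with 10 CPM added (also chosen after the data were seen) 83 and 162, with 50 CPM added 20 and 51, and without the 5 highest cells of each gene 88 and 879. Genes of the functional lists (cell type lists and genes of the limits left out) were 19 higher and 29 lower, and 46 and 50 at 1.5-fold. Among all 10850 genes counted for lists, 4.39% were 2-fold higher and 7.12% lower. No share of all genes was taken at 1.5-fold, so these counts show only how the limit moves them. TMM scaling gave 270 genes higher and 1012 lower in the knockout cells, against 364 and 674. Csf1r was found in 86.6% of C1q-low cells at 5000 UMIs, 70.9% at 3000 and 92.3% unthinned. Of the 30 genes named against the other immune cells, 7 turned to the other side of 1 in 12 of 240 values. Without the 11 cells of low immune content, a set chosen after the data were seen, these were Aplp1 (0.84), Chgb (0.83), Col1a1 (0.13), Col3a1 (0.21), Ghrl (0.68), Itm2a (0.54) and Meg3 (0.41). Without the 5 highest cells they were Chgb (0.89), Col1a1 (0.34), Col3a1 (0.43), Ghrl (0.67) and Itm2a (0.75). Depth limits rare cells: 0 of 164 allows a share of up to 1.83%.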

Other observations

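Integrins and some cytokine and peptide receptors of the C1q-low cells have not been described above. Itgb7, a chain of gut-homing integrins, had 58.8 CPM against 21.7 in the other control immune cells, Itgb2, the shared chain of leukocyte integrins, 151 against 77.7, Itgam, which encodes CD11b, 106 against 66.4, and Itgax, which encodes CD11c, 7.54 against 2.02. Csf2ra, a chain of the GM-CSF receptor, had 240 against 133 CPM, and Il17ra 106 against 51.9. The formyl peptide receptor gene Fpr2 had 43.2 against 21.2 CPM. Of 17 measured cytokine receptor genes 2 were higher and 1 lower, and of 8 integrin genes 2 were higher and 0 lower. Among all 10850 genes counted for lists, 4.39% were higher and 7.12% lower. The cytokine receptor list had 2053 CPM in the C1q-low cells, 2036 in the other immune cells and 2344 in the Fcgr4 group. The pattern receptor list, which holds Fpr2, had 788, 752 and 947 CPM in the same order. Neither list was thus particular to the C1q-low cells. The integrin list summed to 631 CPM in the C1q-low cells, 661 in the Ly6c2 group and 612 in the Fcgr4 group. It had 448 CPM in the C1q group and 355 in the Lyve1 group. As a list, integrins thus stood at a similar level in the Ly6c2 and Fcgr4 groups and were not particular to the C1q-low cells.

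Cd34, a gene of progenitors, stood at 72.9 CPM in the C1q-low cells, 22.0 in the other immune cells and 0.981 in the epithelial cells, and was present in 22.6% of 164 thinned C1q-low cells and 0 of 35 epithelial cells, which allows a share of up to 8.57%. At the same depth Cd34 was present in 16.1% of the Ly6c2 group (8.02 to 27.7) and 13.6% of the Fcgr4 group (7.25 to 22.6). Both intervals overlap that of the C1q-low cells (16.4 to 29.7). The shares were 4.13% in the C1q group and 3.70% in the Lyve1 group. The progenitor genes Kit and Flt3 had 4 and 6 UMIs in the 182 cells.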
